A study of Homo sapiens with 6 samples.

Results

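The glycolysis and hypoxia response genes were 35 genes taken by symbol from a table of 59151 genes: the enzymes that turn glucose into lactate with their transporters and regulators, genes known to be induced in low oxygen, and genes of the oxygen sensor itself. All 35 symbols were found. The cells were neuron progenitors of the forebrain, harvested at day 26 of a culture that started from the established human embryonic stem cell line H9. Total RNA depleted of ribosomal RNA was sequenced. The 6 libraries fell into 3 groups of 2: a scrambled control hairpin in cells labelled WT, and shRNA1 or shRNA2, 2 hairpins that target circRTN4(2,3), a circular transcript of RTN4. Replicates are only numbered in the labels, which leaves unsaid if they were separate cultures, so the p-values measure only how these libraries vary, which may be technical variation.

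Glycolysis splits glucose into pyruvate through a fixed chain of enzymes, and lactate dehydrogenase then turns pyruvate into lactate or back. Several steps have isozymes from separate genes, and neural progenitors are known for a more glycolytic metabolism than the neurons they give rise to. In low oxygen the prolyl hydroxylases (EGLN genes) stop marking the transcription factor subunit HIF1A for destruction by the VHL ubiquitin ligase, and HIF then binds a short core, ACGTG or GCGTG, near its target genes. HIF1A is controlled mostly at the level of its protein, which RNA levels do not measure.

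Promoter windows of 300 bases (250 before to 50 after a start site) from RefSeq, build GRCh38.p14, were held for 30 of the 35 genes, with 57 windows in all. Either core, on either strand, was in 66.7% of these windows and in 48.4% of all 35116 windows of the same length, and ACGTG alone in 40.4% and 21.4%. A match of these letters is a description and does not show binding. The 4 windows below, 5′ to 3′ on the gene's strand, show this core at a gene near the limit of detection here (CA9) and at 3 genes measured above that limit (PGK1, LDHA and ENO1). Of these 3, LDHA had the lowest level and the most matches. Capitals mark ACGTG or GCGTG, or their reverse complements CACGT and CACGC, and the palindrome that holds ACGTG on both strands counts as 2 overlapping matches.
CA9 promoter, chr9:35673678-35673977, + strand, 1 match: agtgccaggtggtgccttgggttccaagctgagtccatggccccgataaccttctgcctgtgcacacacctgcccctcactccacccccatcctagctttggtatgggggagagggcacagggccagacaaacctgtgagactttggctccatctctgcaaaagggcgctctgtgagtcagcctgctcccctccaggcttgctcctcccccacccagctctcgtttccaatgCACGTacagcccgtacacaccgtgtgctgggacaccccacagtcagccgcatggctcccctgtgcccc
PGK1 promoter, chrX:78103998-78104297, + strand, 4 matches: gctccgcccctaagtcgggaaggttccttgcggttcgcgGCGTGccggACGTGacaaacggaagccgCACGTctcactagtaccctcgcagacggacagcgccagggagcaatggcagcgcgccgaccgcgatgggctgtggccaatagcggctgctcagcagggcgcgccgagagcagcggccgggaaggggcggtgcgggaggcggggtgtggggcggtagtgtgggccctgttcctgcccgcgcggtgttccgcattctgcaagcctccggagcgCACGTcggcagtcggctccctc
LDHA promoter, chr11:18394313-18394612, + strand, 6 matches: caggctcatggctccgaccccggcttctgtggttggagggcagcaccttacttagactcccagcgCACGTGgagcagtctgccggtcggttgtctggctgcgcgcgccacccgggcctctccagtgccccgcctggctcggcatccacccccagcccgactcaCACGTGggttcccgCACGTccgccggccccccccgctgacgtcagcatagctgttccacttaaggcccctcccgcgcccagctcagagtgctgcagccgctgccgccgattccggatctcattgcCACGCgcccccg
ENO1 promoter, chr1:8878637-8878936, - strand, 2 matches: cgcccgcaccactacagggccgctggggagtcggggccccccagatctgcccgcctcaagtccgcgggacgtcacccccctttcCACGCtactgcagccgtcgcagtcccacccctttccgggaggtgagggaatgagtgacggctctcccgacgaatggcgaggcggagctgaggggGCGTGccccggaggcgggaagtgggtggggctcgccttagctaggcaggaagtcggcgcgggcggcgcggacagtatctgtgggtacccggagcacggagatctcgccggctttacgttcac

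The labelled cell type was checked on marker lists. Of 11 forebrain progenitor markers 10 had a mean of at least 1 FPKM (fragments per kilobase of gene, scaled to the total of each library), as did 8 of 10 neuron markers and 5 of 5 cycling cell markers. Endothelial markers summed to at most 0.601 FPKM in any library and microglia and blood markers to at most 0.354 FPKM, with 4 of 7 and 6 of 7 genes under 0.1 FPKM in all libraries. Markers of choroid plexus and roof plate, 8 genes of which 3 had a mean of at least 1 FPKM, summed to 15.9 to 17.6 FPKM in scramble, 4.39 to 4.64 FPKM with shRNA1 and 3.53 to 3.72 FPKM with shRNA2. Astrocyte markers summed to 16.8 to 18.3 FPKM in scramble, 9.54 to 9.73 FPKM with shRNA1 and 10.1 to 10.2 FPKM with shRNA2, with GFAP, AQP4 and ALDH1L1 under 0.1 FPKM in all libraries. Pluripotency markers summed to 7.6 to 7.73 FPKM in scramble, 8.84 to 8.88 FPKM with shRNA1 and 15.96 to 16.01 FPKM with shRNA2, with POU5F1, NANOG and ZFP42 under 0.1 FPKM. Cycling cell markers summed to 86.8 to 92.7 FPKM in scramble, 72.7 to 75.1 FPKM with shRNA1 and 83.5 to 84.1 FPKM with shRNA2. The part of these lists in the values of the 35 genes was not tested. The recovered library totals were 46634855 reads for scramble replicate 1 and 77187298 to 83629504 for the other libraries. Replicates of scramble had a median SD of 0.109 in log2(FPKM + 1), against 0.0355 with shRNA1 and 0.0452 with shRNA2; the fit uses 1 spread for all 3 groups. RTN4, the host gene, stood at 40.3 and 38.5 FPKM in scramble, 34.2 and 34.7 FPKM under shRNA1, and 31.2 and 31.3 FPKM under shRNA2, a log2 difference for the knockdown of -0.26 (limma, adjusted p = 0.135). Gene-level FPKM does not measure the circular RNA itself.

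Several glycolytic enzymes were abundant, and several genes used as reporters of hypoxia were scarce, but levels varied within both sets. LDHA averaged 2.47 FPKM and HK2 1.86 FPKM, while the hypoxia-induced genes BNIP3L and P4HA1 averaged 14.8 and 3.71 FPKM. Averaged over the 6 libraries, GAPDH, which carries out the first oxidation of the pathway, stood at 87.9 FPKM, LDHB at 53.5 FPKM, PKM, the pyruvate kinase of most tissues, at 21.9 FPKM and ENO1 at 20.1 FPKM. CA9, a carbonic anhydrase at the cell surface that is a standard marker of hypoxic tissue, lay between 0 and 0.0472 FPKM. ADM, which encodes the vessel-relaxing peptide adrenomedullin, lay between 0 and 0.0515 FPKM. The values of CA9 correspond to at most 6.09 reads in a library and those of ADM to at most 10.98 reads, taking the exon length of GENCODE v29. CA9 was listed at 0 in shRNA2 replicate 2, which allows up to 0.0225 FPKM, and ADM in scramble replicate 1, which allows up to 0.0237 FPKM (3 reads in that library, counting error only), so no difference between groups was read for these 2 genes. EGLN3, the prolyl hydroxylase most strongly induced by HIF, lay between 0.107 and 0.14 FPKM, SLC16A3, the lactate exporter of glycolytic cells, between 0.161 and 0.281 FPKM, and NDRG1, a stress-induced gene, between 0.371 and 0.462 FPKM.

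**Figure D1:**
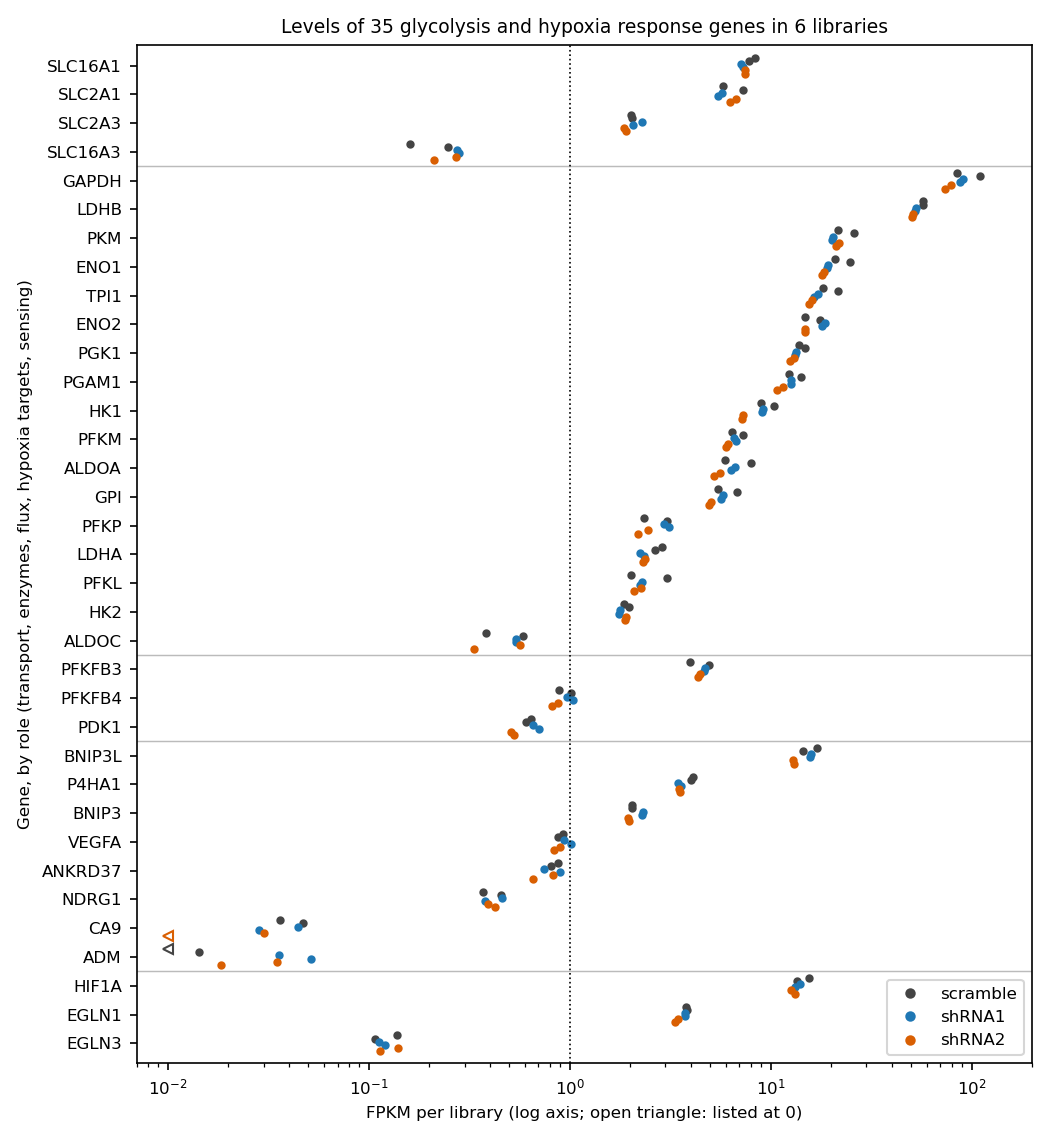
FPKM of the 35 genes in each library on a log axis, grouped by role and ordered by mean within a role; colours are the groups, the dotted line is 1 FPKM and open triangles are values listed at 0. GAPDH and LDHB lie above 50 FPKM in all 6 libraries, while CA9 and ADM stay under 0.1 FPKM.

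In all, 25 of the 35 genes had a mean of at least 1 FPKM and were tested. The other 10 were SLC16A3, ALDOC, PFKFB4, PDK1, VEGFA, CA9, NDRG1, ADM, ANKRD37 and EGLN3. Among them PFKFB4, which sets a sugar phosphate signal for glycolysis, averaged 0.934 FPKM, and VEGFA, the vessel growth factor, 0.916 FPKM. ANKRD37, a HIF target of little known function, averaged 0.801 FPKM and PDK1, a kinase that inhibits pyruvate dehydrogenase, 0.607 FPKM. PDK1 stood at 0.64 and 0.608 FPKM in scramble, 0.654 and 0.702 FPKM under shRNA1, and 0.509 and 0.528 FPKM under shRNA2. The shRNA2 libraries were the lowest of the 6 for PDK1. In a fit with no filter, over all 59151 genes, 0 of the 35 were called in any comparison (limma), as were 0 of all genes, of which 4596 to 7009 had an unadjusted p under 0.05. Of 8 hypoxia-induced genes outside glycolysis only BNIP3, BNIP3L and P4HA1 passed the filter, against 16 of 17 glycolytic enzymes.

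At each step with isozymes the same gene led in all 6 libraries. For lactate dehydrogenase, LDHB, the subunit typical of oxidative tissue, exceeded LDHA, the subunit typical of lactate-producing tissue, by 21.7 times in mean FPKM. FPKM divides by a gene length, and for LDHA the exons of GENCODE v29 cover 6210 bases against 2416 for its longest coding transcript. Scaled to the longest coding transcript, a choice made once the data had been seen, LDHB exceeded LDHA by 16.4 times. HK1, the hexokinase known from brain, exceeded HK2, the hexokinase induced by HIF, by 4.65 times in mean FPKM and 6.98 times by longest coding transcript. For aldolase, ALDOA exceeded ALDOC, the isozyme typical of brain, by 12.7 times in mean FPKM and 20.2 times by longest coding transcript. Among the 3 phosphofructokinases, the enzymes of the main control step, PFKM held 54.6% to 59.5% of the summed FPKM, PFKP 21.2% to 25.8% and PFKL 18.5% to 22.7%. By longest coding transcript PFKM remained first at 53.1% to 58.6%, with PFKL (24.9% to 29.8%) then above PFKP (16% to 19.8%). The order of PFKL and PFKP therefore depended on the length used. ENO2, the neuronal enolase, held 41.5% to 49.1% of enolase FPKM, and 32.3% to 39.4% by longest coding transcript.

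The comparison of both hairpins with scramble asks how these genes stand after knockdown of circRTN4(2,3). None of the 25 tested genes passed the threshold in any of the 4 comparisons of groups. Most values were slightly below scramble: 22 of 25 were negative for the knockdown, the mean of both hairpins, with a median of -0.12 in log2(FPKM + 1) against -0.034 over all 18162 genes tested. Genes more like these were also further below scramble. The median was -0.051 over the 10090 protein-coding genes, which include all 25. Over genes that averaged at least 5 FPKM it was -0.078, against -0.15 for the 16 of the 25 among them. In the fit by limma with Benjamini-Hochberg adjustment over all genes, 0 of 25 were called, where 0.0826% of all genes were (0.0771% lower and 0.00551% higher), and 7 of 25 had an unadjusted p under 0.05, as did 2498 (13.8%) of the 18162. For 8 of 25 genes each knockdown library was lower than each scramble library, against 12.6% of all genes, and above both for 0 of 25, against 5.87%. These 8 were SLC16A1, TPI1, PGK1, ENO1, LDHA, LDHB, P4HA1 and EGLN1. Bulk RNA cannot tell fewer cells of a type from less RNA per cell.

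ENO1, which makes phosphoenolpyruvate (chromosome 1, 8861000 to 8878686), stood at 20.9 and 24.8 FPKM in scramble, 19.3 and 19.1 FPKM under shRNA1, and 18.6 and 18.1 FPKM under shRNA2. All 4 knockdown libraries were below both scramble libraries, but the gap between the scramble libraries was larger than that between the lower of them and the nearest knockdown library. The log2 difference for the knockdown was -0.27 ± 0.075 (SE; limma, adjusted p = 0.241), and -0.15 without scramble replicate 2. TPI1, which interconverts the triose phosphates (chromosome 12, 6867420 to 6870948), had a like pattern with 18.3 and 21.6 FPKM in scramble, 17.1 and 16.5 FPKM under shRNA1, and 16.1 and 15.6 FPKM under shRNA2. Its log2 difference was also -0.27 ± 0.075 (SE; limma, adjusted p = 0.244), and it too was -0.15 without scramble replicate 2. Pseudogene rows named after TPI1 summed to at most 4.2% of its own FPKM.

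LDHB and LDHA were steadier between the scramble libraries. LDHB (chromosome 12, 21635342 to 21657842) stood at 57.1 and 57.4 FPKM in scramble, 52.7 and 52.2 FPKM under shRNA1, and 51.1 and 50.6 FPKM under shRNA2. The groups did not overlap, and the scramble libraries differed by less than either hairpin did from them. The log2 difference for the knockdown was -0.15 ± 0.042 (SE; limma, adjusted p = 0.248), and 0.0069 after quantile normalization, which changes its sign. LDHA (chromosome 11, 18394563 to 18408425), whose promoter with 6 core matches is printed above, stood at 2.88 and 2.66 FPKM in scramble, 2.24 and 2.35 FPKM under shRNA1, and 2.37 and 2.31 FPKM under shRNA2. Every knockdown library was below every scramble library, with a log2 difference of -0.18 ± 0.052 (SE; limma, adjusted p = 0.245).

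Outside the enzymes, P4HA1, a HIF-induced enzyme that hydroxylates proline in collagen (chromosome 10, 73007217 to 73096866), stood at 4.09 and 4.01 FPKM in scramble, 3.47 and 3.59 FPKM under shRNA1, and 3.52 and 3.56 FPKM under shRNA2. Its scramble libraries were alike and all 4 knockdown libraries were lower, with a log2 difference of -0.16 ± 0.044 (SE; limma, adjusted p = 0.246). The 7 mesenchyme markers, among them collagen genes, together summed to 5.95 to 6.67 FPKM in scramble, 1.37 to 1.54 FPKM with shRNA1 and 0.662 to 0.867 FPKM with shRNA2. The part of that list in the P4HA1 values was not tested. SLC16A1, which carries lactate and pyruvate across the cell membrane (chromosome 1, 112911847 to 112956196), stood at 8.39 and 7.83 FPKM in scramble, 7.17 and 7.26 FPKM under shRNA1, and 7.47 and 7.42 FPKM under shRNA2. All 4 knockdown libraries were below scramble, with a log2 difference of -0.13 ± 0.046 (SE; limma, adjusted p = 0.325), and -0.085 without scramble replicate 1.

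Other members with less clear differences from scramble did not pass either. PKM, which makes pyruvate, stood at 21.7 and 26.1 FPKM in scramble, 20.4 and 20.2 FPKM under shRNA1, and 21.9 and 21.1 FPKM under shRNA2, a log2 difference for the knockdown of -0.18 (limma, adjusted p = 0.414). That value was -0.31 without scramble replicate 1 and -0.052 without scramble replicate 2. PGK1, the first enzyme of the chain to yield ATP, stood at 13.8 and 14.8 FPKM in scramble, 13.5 and 13.3 FPKM under shRNA1, and 13.1 and 12.5 FPKM under shRNA2. PGAM1, which shifts the phosphate before the enolase step, stood at 12.4 and 14.2 FPKM in scramble, 12.6 and 12.6 FPKM under shRNA1, and 11.5 and 10.8 FPKM under shRNA2. For PKM scramble and shRNA2 overlapped, for PGK1 no knockdown library reached scramble, and for PGAM1 the shRNA1 libraries lay inside the scramble range. GPI, which turns glucose phosphate into fructose phosphate, stood at 5.46 and 6.83 FPKM in scramble, 5.83 and 5.66 FPKM under shRNA1, and 5.06 and 4.95 FPKM under shRNA2. PFKFB3, an activator of phosphofructokinase, stood at 3.99 and 4.92 FPKM in scramble, 4.73 and 4.66 FPKM under shRNA1, and 4.45 and 4.33 FPKM under shRNA2, with all 4 knockdown libraries between the scramble libraries. SLC2A1, the glucose transporter found in most cells, stood at 5.78 and 7.32 FPKM in scramble, 5.76 and 5.50 FPKM under shRNA1, and 6.76 and 6.25 FPKM under shRNA2. SLC2A1 was the tested gene with the most positive difference between the hairpins, 0.18 (limma, adjusted p = 0.465), with shRNA1 at or below the lower scramble library and shRNA2 within the scramble range.

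Scramble replicate 2 was the highest of the 6 libraries for most enzymes, and the knockdown values changed with this library. Of the 16 tested enzymes, 15 were higher in scramble replicate 2 than in replicate 1, by a median of 0.23 on the log2 scale, against 0.039 over all genes tested. PFKL had 2.03 and 3.04 FPKM in scramble, 2.3 and 2.23 FPKM under shRNA1, and 2.27 and 2.09 FPKM under shRNA2, so that all 4 knockdown libraries lay between the scramble libraries. ALDOA showed 5.9 and 7.98 FPKM in scramble, 6.67 and 6.36 FPKM under shRNA1, and 5.62 and 5.22 FPKM under shRNA2. GAPDH stood at 85.0 and 110.4 FPKM in scramble, 91.2 and 87.7 FPKM under shRNA1, and 79.0 and 74.1 FPKM under shRNA2, with shRNA1 inside and shRNA2 below the range of scramble. Among the genes of hypoxia and oxygen sensing, 0 of 3 and 1 of 2 tested genes were higher in scramble replicate 2: HIF1A stood at 15.6 FPKM in replicate 1 and 13.6 FPKM in replicate 2, and BNIP3L at 16.9 and 14.5 FPKM. For 15 of the 25 genes the difference between the scramble libraries exceeded the knockdown difference, as it did for 69.2% of all genes tested. Without scramble replicate 2 the median over the 25 genes was -0.052 with 17 negative, and without scramble replicate 1 it was -0.15 with 24 negative. Leaving out scramble replicate 1 also gave 6 called genes (ENO1, GAPDH, GPI, HK1, PKM and TPI1; limma, adjusted p = 0.0442 to 0.0495), among 507 (2.79%) called in all, with the spread then taken from the hairpin libraries alone. After quantile normalization the median was -0.04, with 19 of 25 negative.

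**Figure D2:**
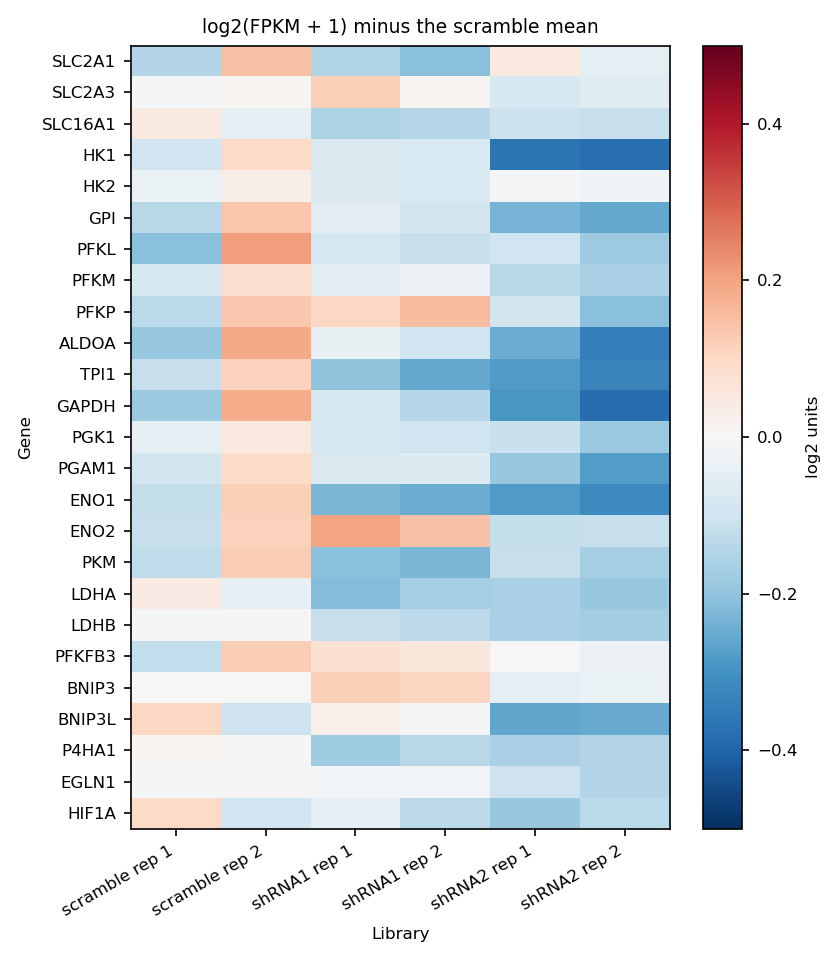
Log2(FPKM + 1) of each of the 25 tested genes (rows) in each library (columns) minus the mean of the 2 scramble libraries, from blue (lower) to red (higher). Scramble replicate 2 is above scramble replicate 1 for most enzymes, with the median gene at 0.091 in replicate 2 and -0.091 in replicate 1, and the shRNA2 libraries are lowest, at -0.14 and -0.17.

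With shRNA1 19 of 25 genes were below scramble, with a median of -0.076 against -0.0028 over all genes, and 0 of 25 were called (limma, 0.033% of all genes called; 6 of 25 had an unadjusted p under 0.05, against 8.97% of all genes). Without scramble replicate 2 this median was -0.0077, and without scramble replicate 1 it was -0.14. The smallest p-values belonged to LDHA (-0.19 ± 0.06, SE; limma, adjusted p = 0.459), P4HA1 (-0.16), SLC16A1 (-0.15) and ENO1 (-0.24). With shRNA2 the values of all 25 were below 0, and their median was -0.15 against -0.064 over all genes. Of these, 0 were called (limma, 0.628% of all genes called, 0.44% lower and 0.187% higher) and 10 had an unadjusted p under 0.05, against 19.2% of all genes. The shRNA2 median was -0.081 after median-of-ratios scaling, with 21 of 25 negative, and -0.069 after quantile normalization, with 19 negative. Over the 10090 protein-coding genes the median was -0.011 with shRNA1 and -0.091 with shRNA2. Over genes that averaged at least 5 FPKM it was -0.026 with shRNA1 and -0.13 with shRNA2. The 16 of the 25 among them had medians of -0.090 and -0.20. Without scramble replicate 1, 12 of the 25 were called as lower with shRNA2, among 2418 genes (13.3%) in all. The knockdown, shRNA1 and shRNA2 comparisons share the same scramble libraries.

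**Figure D3:**
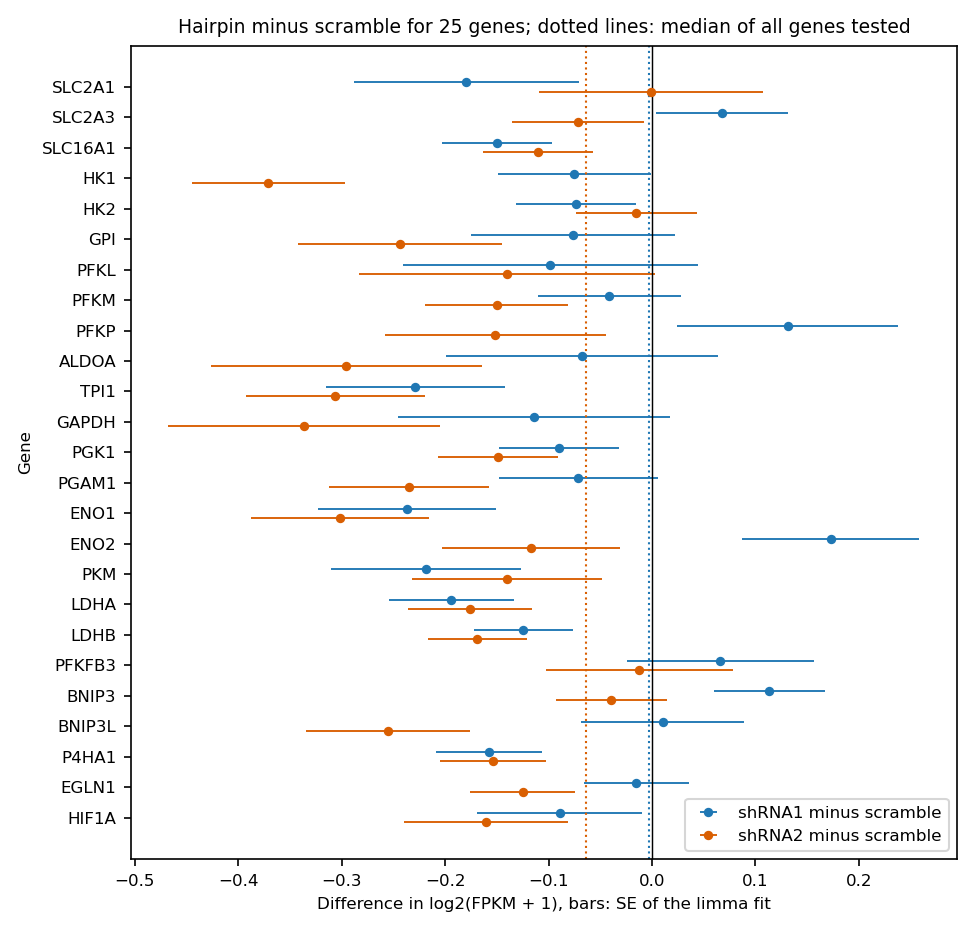
Difference in log2(FPKM + 1) from scramble for the 25 tested genes with shRNA1 (blue) and shRNA2 (orange); bars are the SE of the limma fit and dotted lines the median of all 18162 genes tested. All shRNA2 points lie at or below 0, and HK1 with shRNA2 (-0.37) is the lowest point.

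The hairpins were then compared with each other, a comparison whose difference does not use the scramble libraries, although its spread is estimated from all 6. HK1, which commits glucose to metabolism (chromosome 10, 69270000 to 69401882), stood at 8.97 and 10.4 FPKM in scramble, 9.13 and 9.1 FPKM under shRNA1, and 7.28 and 7.2 FPKM under shRNA2. The shRNA1 libraries lay within the scramble range and both shRNA2 libraries below it. The log2 difference of shRNA2 from scramble was -0.37 ± 0.074 (SE; limma, adjusted p = 0.109), and that from shRNA1 was -0.30 ± 0.074 (adjusted p = 0.197). For the knockdown as a whole HK1 differed by -0.22 ± 0.064 (SE; limma, adjusted p = 0.25), and by -0.13 without scramble replicate 2. With shRNA2, HK1 passed against scramble when protein-coding genes were tested alone (limma, adjusted p = 0.049), a choice also made once the data had been seen. In that fit 383 of 10090 genes were called. HK2, induced by HIF, stood at 1.86 and 1.99 FPKM in scramble, 1.78 and 1.77 FPKM under shRNA1, and 1.91 and 1.88 FPKM under shRNA2, and no comparison of it passed.

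ENO2 (chromosome 12, 6914580 to 6923697) stood at 14.8 and 17.6 FPKM in scramble, 18.7 and 18.0 FPKM under shRNA1, and 14.8 and 14.8 FPKM under shRNA2. Both shRNA1 libraries were above all others, with a difference between hairpins of -0.29 ± 0.086 (SE; limma, adjusted p = 0.236). The 10 neuron markers summed to 389 to 397 FPKM in scramble, 410.4 to 414.6 FPKM with shRNA1 and 351 to 352 FPKM with shRNA2. This sum was also highest with shRNA1, but with shRNA2 it was below both scramble libraries, where ENO2 was level with scramble replicate 1. The part of these markers in the ENO2 values was not tested. BNIP3L, a receptor for removal of mitochondria, stood at 16.9 and 14.5 FPKM in scramble, 16.0 and 15.6 FPKM under shRNA1, and 12.9 and 13.0 FPKM under shRNA2. The shRNA2 libraries were the lowest, with a difference between hairpins of -0.27 ± 0.079 (SE; limma, adjusted p = 0.237). BNIP3, its close relative (chromosome 10, 131967684 to 131981923), stood at 2.05 and 2.05 FPKM in scramble, 2.31 and 2.29 FPKM under shRNA1, and 1.96 and 1.98 FPKM under shRNA2. Its shRNA1 libraries were above and its shRNA2 libraries below both scramble libraries, with a difference between hairpins of -0.15 ± 0.054 (SE; limma, adjusted p = 0.278). Pseudogene rows named after BNIP3 reached 46.4% of its own FPKM, so reads shared with these copies leave its level uncertain.

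PFKP, the platelet-type phosphofructokinase, stood at 2.35 and 3.05 FPKM in scramble, 2.96 and 3.11 FPKM under shRNA1, and 2.45 and 2.18 FPKM under shRNA2. PFKM, the muscle type, stood at 6.43 and 7.32 FPKM in scramble, 6.58 and 6.7 FPKM under shRNA1, and 6.14 and 6.04 FPKM under shRNA2. For both genes each shRNA2 library was below each shRNA1 library. Across the 25 genes this held for 18, against 46.6% of all genes tested, and the reverse order held for 4, against 16.6%. Over the 25 genes the median difference between hairpins was -0.078, against -0.06 over all genes. Of these, 0 of 25 were called (limma, 0% of all genes called) and 5 had an unadjusted p under 0.05, against 16.1% of all genes. After median-of-ratios scaling this median was -0.0092, with 13 of 25 negative, against 0.0013 over all genes. After quantile normalization it was -0.014, with 14 negative. Over the 10090 protein-coding genes, which include all 25, the median difference between hairpins was -0.082. Over genes that averaged at least 5 FPKM it was -0.10, against -0.093 for the 16 of the 25 among them. The shares of 46.6% and 16.6% were not computed for these narrower sets. When 1 scramble library was left out, 3 of the 25 were called as lower with shRNA2: HK1, ENO2 and BNIP3L (limma, adjusted p = 0.0415 to 0.0441), where 978 genes (5.38%) were called without scramble replicate 1 and 1029 (5.67%) without scramble replicate 2.

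Shares of isozymes do not depend on how libraries are scaled against each other. ENO2 made up 41.5% and 41.5% of enolase FPKM in scramble, 49.1% and 48.6% with shRNA1, and 44.4% and 45.1% with shRNA2. All 4 knockdown libraries were above both scramble libraries, by 5.33 percentage points on average, and by 4.91 points by longest coding transcript. HK2 made up 17.2% and 16.1% of hexokinase 1 and 2 FPKM in scramble, 16.4% and 16.3% with shRNA1, and 20.8% and 20.7% with shRNA2, so only the shRNA2 libraries stood apart. LDHA made up 4.8% and 4.43% of lactate dehydrogenase FPKM in scramble, 4.07% and 4.31% with shRNA1, and 4.43% and 4.36% with shRNA2. ALDOC, at 0.384 and 0.588 FPKM in scramble, 0.543 and 0.544 FPKM under shRNA1, and 0.57 and 0.333 FPKM under shRNA2, made up 6% to 9.2% of aldolase FPKM, and its shRNA2 libraries alone spanned this range. In a two-sided exact permutation test of the 4 knockdown against the 2 scramble libraries, ENO2 gave p = 0.133, HK2 p = 0.333 and LDHA p = 0.0667, the smallest p this design allows. Over the 7 shares computed, the adjusted p (Benjamini-Hochberg) was 0.467 for ENO2 and LDHA. No share could have passed, because even the smallest p this design allows lies above the threshold for calls. The test therefore cannot decide if any share differed between knockdown and scramble.

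**Figure D4:**
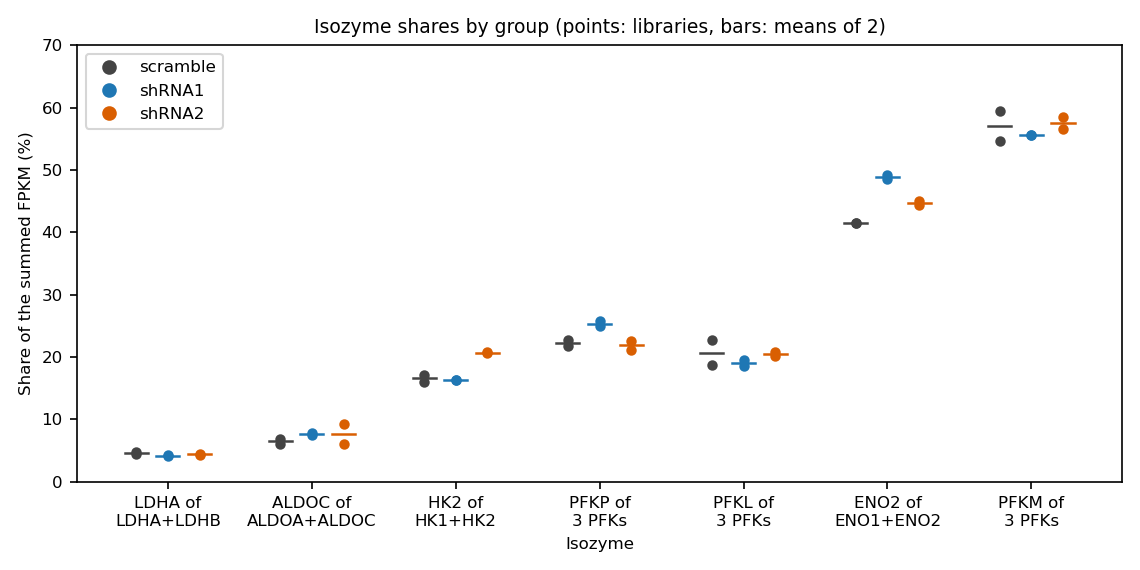
Share of each isozyme in the summed FPKM of its step, in percent, with a point for each library and a bar at the mean of 2. The ENO2 share is 41.5% in scramble and 48.9% with shRNA1, and the HK2 share rises above the others only in the shRNA2 group, at 20.7%.

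The RNAs of the oxygen sensor itself were measured well above the filter, apart from EGLN3. HIF1A (chromosome 14, 61695513 to 61748258) averaged 14.6 ± 1.44 FPKM in scramble, 13.6 ± 0.59 FPKM with shRNA1 and 12.9 ± 0.371 FPKM with shRNA2 (mean ± SD, n = 2 each). EGLN1, the main prolyl hydroxylase, stood at 3.79 and 3.84 FPKM in scramble, 3.76 and 3.76 FPKM under shRNA1, and 3.48 and 3.35 FPKM under shRNA2, where both libraries were lowest. EPAS1, the HIF subunit typical of endothelium, lay between 0.0848 and 0.292 FPKM. ARNT2, the HIF partner subunit of neurons, lay between 10.4 and 13.6 FPKM, above ARNT, its more widespread relative, at 3.3 to 3.72 FPKM.

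Among 17 HIF subunits and control genes, 15 were tested and 0 were called in any comparison (limma). VHL, the substrate subunit of the ubiquitin ligase that removes HIF proteins (chromosome 3, 10141778 to 10153667), stood at 10.0 and 9.89 FPKM in scramble, 10.0 and 10.5 FPKM under shRNA1, and 7.41 and 7.43 FPKM under shRNA2. The shRNA2 libraries were lower than all others, and both shRNA1 libraries were slightly above both scramble libraries. The log2 difference of shRNA2 was -0.38 ± 0.048 from scramble (SE; limma, adjusted p = 0.0569) and -0.42 ± 0.048 from shRNA1 (adjusted p = 0.0976). When the filter was raised to 5 FPKM, VHL passed in both (adjusted p = 0.0263 and 0.038), as it did among protein-coding genes alone (0.0174 and 0.0222). The raised filter called 261 and 46 of 4583 genes, and the fit to protein-coding genes alone 383 and 245 of 10090. CITED2, which competes with HIF for its coactivator, stood at 9.56 and 9.93 FPKM in scramble, 9.63 and 9.1 FPKM under shRNA1, and 7.99 and 7.96 FPKM under shRNA2. Its shRNA2 libraries were also the lowest, with a log2 difference from scramble of -0.26 ± 0.053 (SE; limma, adjusted p = 0.112). RACK1, which can mark HIF1A for destruction independently of oxygen, stood at 27.4 and 33.6 FPKM in scramble, 26.5 and 25.8 FPKM under shRNA1, and 25.2 and 24.4 FPKM under shRNA2. All 4 knockdown libraries were below scramble, with a log2 difference of -0.24 (limma, adjusted p = 0.325).

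Of 40 other genes known to be induced in hypoxia, 18 were tested and 0 were called, with 11 below and 7 above scramble in the knockdown and a median of -0.0085. STC1, which encodes the hormone stanniocalcin 1, stood at 1.05 and 1.07 FPKM in scramble, 1.94 and 1.71 FPKM under shRNA1, and 1.58 and 1.5 FPKM under shRNA2. All 4 knockdown libraries were above scramble, with a log2 difference of 0.38 ± 0.061 (SE; limma, adjusted p = 0.126). STC1 passed among protein-coding genes alone (limma, adjusted p = 0.0409), where 102 of 10090 genes were called. SLC7A11, the cystine importer, stood at 1.39 and 1.16 FPKM in scramble, 1.51 and 1.59 FPKM under shRNA1, and 2.13 and 2.08 FPKM under shRNA2. The 4 knockdown libraries were again higher, with a log2 difference of 0.31 ± 0.065 (SE; limma, adjusted p = 0.177). For shRNA2 by itself SLC7A11 differed by 0.45 (adjusted p = 0.0827, and 0.0246 among protein-coding genes alone, where 383 of 10090 were called). No other of these 18 genes had knockdown libraries all above scramble.

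In the lists of neighbouring glucose metabolism, 0 of 4 transport, 0 of 13 glycolysis and glycogen, 0 of 13 pyruvate entry and pyruvate dehydrogenase and 0 of 7 pentose phosphate genes were called in any comparison (limma). PGD, the oxidative enzyme of the pentose phosphate pathway, stood at 31.7 and 34.2 FPKM in scramble, 28.97 and 29.87 FPKM under shRNA1, and 28.6 and 27.5 FPKM under shRNA2. All 4 knockdown libraries were below scramble, with a log2 difference of -0.19 ± 0.052 (SE; limma, adjusted p = 0.24). PGM2, a phosphopentomutase, stood at 3.57 and 2.99 FPKM in scramble, 2.83 and 2.82 FPKM under shRNA1, and 2.28 and 2.61 FPKM under shRNA2, a log2 difference of -0.23 (limma, adjusted p = 0.304). PDHA1, a catalytic subunit of pyruvate dehydrogenase, stood at 5.95 and 5.3 FPKM in scramble, 5.23 and 5.19 FPKM under shRNA1, and 4.64 and 4.61 FPKM under shRNA2, a difference of -0.16 (limma, adjusted p = 0.311). For both genes every knockdown library was below scramble. BSG, the chaperone of lactate transporters, stood at 22.2 and 27.6 FPKM in scramble, 21.74 and 22 FPKM under shRNA1, and 23.2 and 21.5 FPKM under shRNA2, so that the groups overlapped. PDP1, the phosphatase that reactivates pyruvate dehydrogenase, was singled out after its values were seen. It stood at 5.86 and 5.59 FPKM in scramble, 6.15 and 6.08 FPKM under shRNA1, and 4.72 and 4.96 FPKM under shRNA2. The hairpins lay on opposite sides of scramble, with a difference between them of -0.28 ± 0.053 (SE; limma, adjusted p = 0.144). Both shRNA2 libraries were below both shRNA1 libraries for 11 of the 13 tested genes of pyruvate entry and pyruvate dehydrogenase, 10 of the 13 of glycolysis and glycogen, 5 of the 7 of the pentose phosphate pathway, 11 of the 15 of HIF control, 12 of the 18 other hypoxia-induced genes and 2 of the 4 of transport, where 46.6% of all genes were. That share was not computed for protein-coding genes alone, whose median difference between hairpins was -0.082, against -0.06 over all genes. After median-of-ratios scaling the median over all genes was 0.0013, and these counts were not repeated on that scale.

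**Figure D5:**
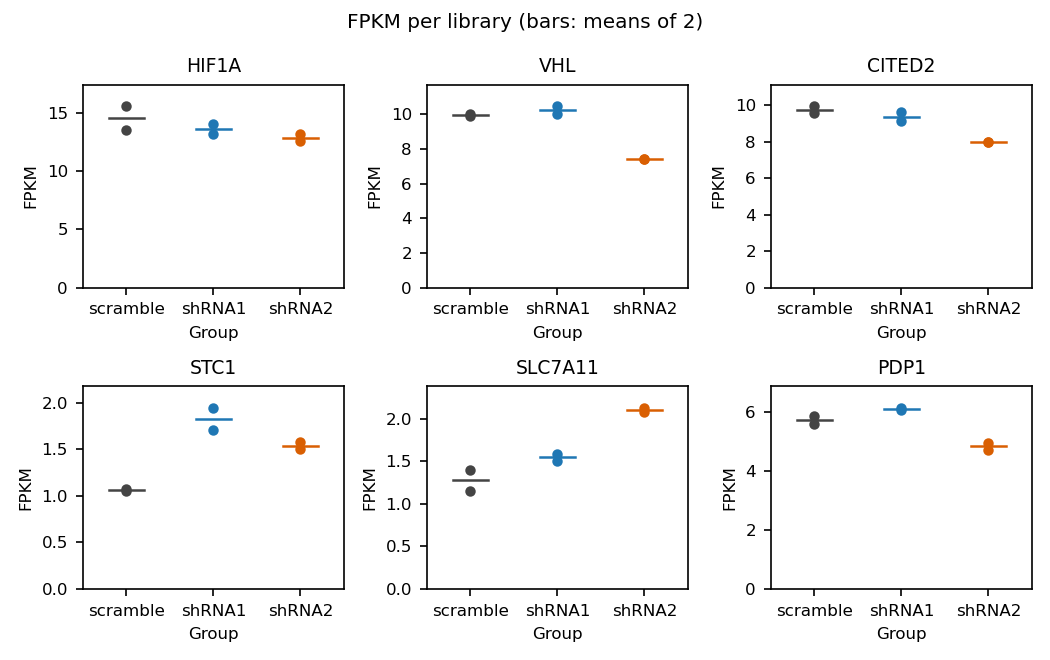
FPKM of HIF1A, VHL, CITED2, STC1, SLC7A11 and PDP1 in each library, with a bar at the mean of 2 and axes that start at 0. VHL, CITED2 and PDP1 are lowest with shRNA2 (7.41 and 7.43 FPKM for VHL), and STC1 and SLC7A11 are above scramble in all 4 knockdown libraries.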

How the data were processed

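Total RNA depleted of ribosomal RNA was sequenced from 6 libraries, 2 each of scramble, shRNA1 and shRNA2. The authors deposited FPKM, 1 value for each gene in each library. Trimmomatic 0.39, SAMtools 1.9, HISAT2 2.1.0 and featureCounts 2.0.1 are listed in the submitters' processing notes, with GRCh38 (hg38) as the build. Which annotation was counted, whether strand was used and how multiply matched reads were split is not given in the sources used here, so reads shared by overlapping, antisense or near-identical genes cannot be assigned with certainty.

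Library totals were recovered as the most frequent total that makes the FPKM of a gene with the exon length of GENCODE v29 equal to 1 read. For 11 of the 35 genes the implied reads were whole hundredths in all 6 libraries (within 0.0005 reads), but not whole numbers, so the values were tested as FPKM. For the others the length, and so the read number, is approximate. One read on 1 kb is 0.012 to 0.0214 FPKM.

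Values were analysed as log2(FPKM + 1), which understates the change of low genes, for 18162 genes that averaged 1 FPKM or more. One model of the 3 groups was fitted in limma 3.58.1 (R 4.3.3) with a trend of variance on mean, p-values were adjusted by the Benjamini-Hochberg method over the 18162 genes, with calls made below an adjusted p of 0.05. The fit was tested on simulated data. Alternatives were a pseudocount of 0.1, no filter, a filter at 5 FPKM, median-of-ratios scaling, quantile normalization, leaving out each library, and the replicate number as a block. The replicate numbers were not taken as pairs. Isozyme shares were added after the data were seen. The genes and lists were chosen with earlier results of these data known.

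Library values were given for the 4 genes with the smallest p in each comparison and for the isozymes. Other members were shown beyond this rule, among them PKM, PGK1, PGAM1, GPI, PFKFB3, SLC2A1, GAPDH and EGLN1. From each neighbouring list, values were given for 1 to 3 genes with the smallest p in the knockdown, and also for PDP1. C1QA, a microglia marker, was not analysed here. Gene positions and promoter windows are those of RefSeq for GRCh38.p14 (1-based). Figures used Python 3.11.15 and matplotlib 3.10.9.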

Additional observations from a re-analysis of the deposited data

Results flagged for a closer look

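In 7 genes both libraries of one hairpin lay above and both of the other below both scramble libraries. They were 3 of the 35 genes, with PDK1 under the filter, and 4 tested genes of the neighbouring lists. LDHC and PFKFB2, neighbouring genes under the filter, had the same pattern and are not counted. The share of all genes with this pattern was not computed, so the count is a description only. In each of the 7, shRNA1 was the higher hairpin. Among all genes tested, both shRNA2 libraries were below both shRNA1 libraries for 46.6% and above them for 16.6%. SLC2A3, the glucose transporter of neurons, stood at 2.01 and 2.05 FPKM in scramble, 2.3 and 2.06 FPKM under shRNA1, and 1.87 and 1.9 FPKM under shRNA2, a log2 difference between hairpins of -0.14 (limma, adjusted p = 0.361). BNIP3 differed by -0.15 (adjusted p = 0.278), and PDK1, in the fit with no filter, by -0.14 (adjusted p = 0.542). Of the other lists VHL differed by -0.42 (adjusted p = 0.0976), PDP1 by -0.28 (adjusted p = 0.144), TXNIP, which restrains glucose uptake, by -0.20 (adjusted p = 0.189) and KDM4C, a histone demethylase, by -0.13 (adjusted p = 0.378). None of these differences passed the test.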

How the results depend on the processing

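The number of genes called over all genes depended on the settings and on single libraries. For the knockdown against scramble it was 15, and 0 with no filter on low values, 35 with the filter at 5 FPKM, 28 after median-of-ratios scaling, 30 after quantile normalization and 102 among protein-coding genes alone. For shRNA1 it was 6, and 2 with a pseudocount of 0.1, 0 with no filter, 3 with the filter at 5 FPKM and 22 among protein-coding genes alone. For shRNA2 it was 114, and 0 with no filter, 261 with the filter at 5 FPKM, 71 after quantile normalization and 383 among protein-coding genes alone. Between the hairpins it was 0, and 46 with the filter at 5 FPKM and 245 among protein-coding genes alone. The filter at 5 FPKM left 4583 genes to test, and the protein-coding genes alone were 10090. Leaving out 1 library gave 0 (without either shRNA2 library) to 507 (without scramble replicate 1) for the knockdown, 0 to 1 for shRNA1, 0 to 2418 (without scramble replicate 1) for shRNA2, and 0 to 1029 (without scramble replicate 2) between the hairpins. With 1 scramble library left, that library is assumed to vary like the hairpin libraries. The causes were not tested.

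With the replicate block, 1 gene was called for the knockdown, 0 for shRNA1, 0 for shRNA2 and 0 between the hairpins. With a crossed replicate block, in which the numbers of the scramble libraries were swapped, 3, 0, 4 and 0 were called. Deviations of same-numbered libraries from their group means had correlations of -0.15 to 0.0122, so the replicate pairing is one of number alone. None of the 25 genes was called with either block. The crossed block and the test of protein-coding genes alone were chosen after seeing the data.

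The median over the 25 genes between the hairpins was -0.078, and -0.0092 after median-of-ratios scaling, -0.014 after quantile normalization and -0.10 to -0.069 with 1 library left out. The medians against scramble kept their sign in all alternatives run. Signs were followed for 38 genes in the knockdown and for 29 genes in each other comparison. Of the genes followed, those below changed sign, and none of them was called in the comparisons of the report. After median-of-ratios scaling the log2 differences were for the knockdown 0.0087 for KDM4C, 0.021 for PFKP and 0.027 for SLC2A3, for shRNA2 0.018 for BNIP3 and 0.042 for HK2, between the hairpins 0.015 for ENO1, 0.038 for LDHB, 0.016 for PFKL, 0.016 for PGD, 0.0090 for RACK1 and 0.0019 for TPI1. After quantile normalization the log2 differences were for the knockdown 0.0069 for LDHB, 0.0060 for PFKP, 0.0021 for SLC2A3 and 0.066 for TXNIP, for shRNA1 0.023 for GAPDH, for shRNA2 0.035 for BSG, 0.021 for ENO2, 0.0037 for HK2, 0.026 for LDHB and 0.023 for TXNIP, between the hairpins 0.030 for ENO1, 0.038 for LDHB, 0.071 for PGD, 0.043 for RACK1 and 0.021 for TPI1. 

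With 1 library left out, the lowest and highest log2 differences had opposite signs for the following of the genes followed. For the knockdown they were -0.37 to 0.0087 for ALDOA, -0.088 to 0.14 for ENO2, -0.037 to 0.0099 for KDM4C, -0.096 to 0.15 for PFKFB3, -0.33 to 0.090 for PFKL, -0.15 to 0.13 for PFKP, -0.24 to 0.058 for SLC2A1 and -0.028 to 0.025 for SLC2A3. For shRNA1 they were -0.26 to 0.12 for ALDOA, -0.094 to 0.12 for BNIP3L, -0.30 to 0.072 for GAPDH, -0.17 to 0.020 for HK1, -0.31 to 0.11 for PFKL, -0.12 to 0.040 for PFKM and -0.0057 to 0.27 for PFKP. For shRNA2 they were -0.30 to 0.0060 for BSG, -0.046 to 0.016 for HK2 and -0.35 to 0.069 for PFKL. Between the hairpins they were -0.024 to 0.080 for BSG, -0.0067 to 0.043 for LDHA and -0.015 to 0.022 for P4HA1. The knockdown differences in isozyme share were -2.92 to 1.028 points for PFKL and -2.93 to 1.996 points for PFKM. For tested members outside the genes followed, leaving out scramble replicate 1 and then replicate 2 also gave opposite signs. With shRNA1 the values were -0.21 and 0.062 for GPI, -0.16 and 0.020 for PGAM1, -0.057 and 0.19 for PFKFB3, 0.0052 and -0.18 for HIF1A. With shRNA2 the values were -0.15 and 0.15 for SLC2A1 and -0.13 and 0.11 for PFKFB3. Of the 10 genes under 1 FPKM, depth limits CA9 and ADM, at no more than 6.09 and 10.98 reads in a library. The others were left out of the test by the filter. Their reads in a library ran from 47.4 (EGLN3) to 1148 (VEGFA), taking the exon length of GENCODE v29.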
